A study of Mus musculus with 22 samples.

Results

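The genes described here were 6 genes of the mouse embryo, Sp110, Zfp352, Ubtfl1, Tmem92, D5Ertd577e and B020004J07Rik, out of 55335 genes in an RNA-seq table that sets embryos with a knockdown (KD) of H2A.Z beside control embryos. They were chosen by their values in these data: a high level at the 2-cell stage, and a higher level in KD than in control blastocysts. Those values are therefore given as a description without a test, and tests of these genes are reported for the contrasts at the 2-cell and morula stages.

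RNA-seq was performed on 22 libraries from embryos of the B6D2F1 strain, each a pool of 15 embryos. Control embryos gave 4 libraries at each stage, and KD embryos gave 3 libraries of 2-cell embryos, 3 of morulae and 4 of blastocysts. Embryos were taken 43 to 44 h after hCG injection as 2-cell embryos, at 78 h as morulae and at 94 h as blastocysts. The paper reports that KD strongly lowered blastocyst formation, while embryos still reached the morula stage. Whether the KD blastocysts of these libraries were delayed, or a selected part of the KD embryos, was not tested. KD zygotes had received about 10 pL of mixed siRNAs against H2A.Z at 20 µM, while the treatment of the control embryos of these libraries is not given in the sources used here. Values are FPKM, fragment counts divided by transcript length and library size, and are therefore relative to the rest of each library: their sum ran from 423915 in a control 2-cell library to 722576 in a control blastocyst library, and percentages across stages are of unscaled values. A library had between 10143 and 12090 genes at an FPKM of at least 1. The number of reads behind a value is unknown. The lowest values of single-exon genes gave a rough relative depth of 14.8 to 28.7 over the libraries, in arbitrary units, with only 8.56% to 17.7% of those values on the steps expected of whole fragments (tolerance 0.02 of a step).

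Zygotic genome activation in the mouse is marked by a burst of transcripts that are abundant at the 2-cell stage and are then cleared or silenced as the embryo compacts and forms a blastocyst. Many of these transcripts come from multicopy gene families and from genes near repeat elements. H2A.Z is a histone variant found at promoters and enhancers, encoded by H2afz and, in a closely related form, by H2afv.

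The target was examined first. The FPKM of H2afz were 1244, 1236, 905 and 1178 in control and 415, 139 and 112 in KD 2-cell embryos. In morulae they were 1158, 1336, 1511 and 1421 in control and 30.3, 25.7 and 29.0 in KD libraries, and in blastocysts 2656, 2431, 1945 and 2055 in control and 64.2, 67.2, 53.2 and 57.6 in KD libraries. Every KD library lay below every control library of its stage, so the labels held for all 22 libraries. The decrease was smallest at the 2-cell stage, where KD replicate 1 kept the highest level. For H2afv, the control and KD means of 2-cell embryos were 109.6 ± 8.96 (SD, n = 4) and 88.9 ± 7.56 (SD, n = 3), those of morulae 100.7 ± 8.75 (SD, n = 4) and 11.3 ± 1.51 (SD, n = 3), and those of blastocysts 57.5 ± 6.40 and 15.3 ± 3.99 (SD, n = 4 each).

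Sp110 belongs to the Sp100 family of nuclear body proteins. The FPKM in 2-cell embryos were 130, 58.6, 137 and 105 in control and 109, 130 and 87.3 in KD libraries. They were 113, 44.6, 37.8 and 82.3 in control and 118, 140 and 91.5 in KD morulae. In blastocysts they were 3.89, 2.17, 3.18 and 5.03 in control and 24.3, 25.7, 37.7 and 34.1 in KD libraries. Sp110 was not confined to the 2-cell stage: control morulae kept 64.6% of the control 2-cell mean and KD morulae had the highest mean of all groups, 116.6 ± 24.4 (SD, n = 3). The decrease in control embryos came between morula and blastocyst. KD blastocysts were at 43.8% of the control morula mean. These groups nearly touched, with the highest KD blastocyst at 37.73 FPKM and the lowest control morula at 37.76.

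Zfp352 encodes a zinc finger protein and is widely used as a 2-cell marker. Its FPKM were 112, 109, 86.7 and 79.9 in control and 92.5, 87.8 and 101 in KD 2-cell embryos. Levels had dropped to 0.0869, 0.156, 2.81 and 2.16 in control and 1.90, 0.713 and 1.94 in KD morulae. They were 0.279, 0.772, 0.0826 and 0.348 in control and 1.91, 5.02, 1.52 and 4.65 in KD blastocysts. Control morulae fell apart by replicate number, with replicates 1 and 2 under 1 FPKM and replicates 7 and 8 above it, and the KD morulae lay between these values. KD blastocysts averaged 3.39% of the control 2-cell mean, so that even the highest of them was far below every 2-cell library.

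Ubtfl1 encodes a protein with HMG boxes related to the ribosomal transcription factor UBTF. It had 35.2, 36.7, 42.3 and 45.4 FPKM in control and 42.1, 42.3 and 40.2 in KD 2-cell embryos. In morulae it had 14.4, 12.2, 14.9 and 14.2 in control and 15.5, 16.4 and 14.6 in KD libraries. Blastocysts had 3.996, 2.82, 3.56 and 2.27 in control and 6.96, 7.11, 7.58 and 5.48 in KD libraries. The decline was stepwise, and the KD blastocysts took a position between control morulae and control blastocysts without overlapping either group.

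Tmem92 encodes a transmembrane protein. The 2-cell libraries had 21.2, 24.8, 32.8 and 23.9 FPKM in control and 20.9, 28.1 and 15.8 in KD embryos. The morula libraries had 2.53, 2.79, 2.09 and 2.098 in control and 3.17, 2.29 and 2.13 in KD embryos. The blastocyst libraries had 0.209, 0.364, 0.326 and 0.460 in control and 0.611, 1.08, 1.35 and 1.77 in KD embryos. It was low in all blastocysts, and the KD libraries, at 4.68% of the control 2-cell mean, stood apart from both control blastocysts and control morulae.

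B020004J07Rik is a protein-coding gene known by its cDNA clone. Its FPKM were 39.8, 40.2, 65.4 and 49.9 in control and 27.9, 36.9 and 35.5 in KD 2-cell embryos. They were 1.30, 1.72, 2.85 and 1.11 in control and 1.69, 2.11 and 2.57 in KD morulae. They were 0.226, 0.288, 0.0602 and 0.348 in control and 2.19, 4.75, 1.08 and 5.70 in KD blastocysts. Every KD library lay below every control library at the 2-cell stage, the groups overlapped in morulae, and every KD library lay above every control library in blastocysts. As for Zfp352, KD blastocyst replicates 4 and 6 were higher than replicates 1 and 5.

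D5Ertd577e differed from the description by which the genes were gathered. It had 20.4, 20.6, 37.5 and 36.0 FPKM in control and 16.4, 24.5 and 20.2 in KD 2-cell embryos. Morulae had 48.0, 48.4, 47.5 and 59.0 in control and 37.4, 43.01 and 49.3 in KD libraries, and blastocysts had 9.72, 14.5, 14.8 and 12.96 in control and 22.7, 24.1, 24.9 and 22.0 in KD libraries. The gene was highest in control morulae, at 177% of the control 2-cell mean, and all control morulae exceeded all 2-cell libraries. KD blastocysts were at 81.8% of that 2-cell mean and overlapped the 2-cell libraries.

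**Figure D1:**
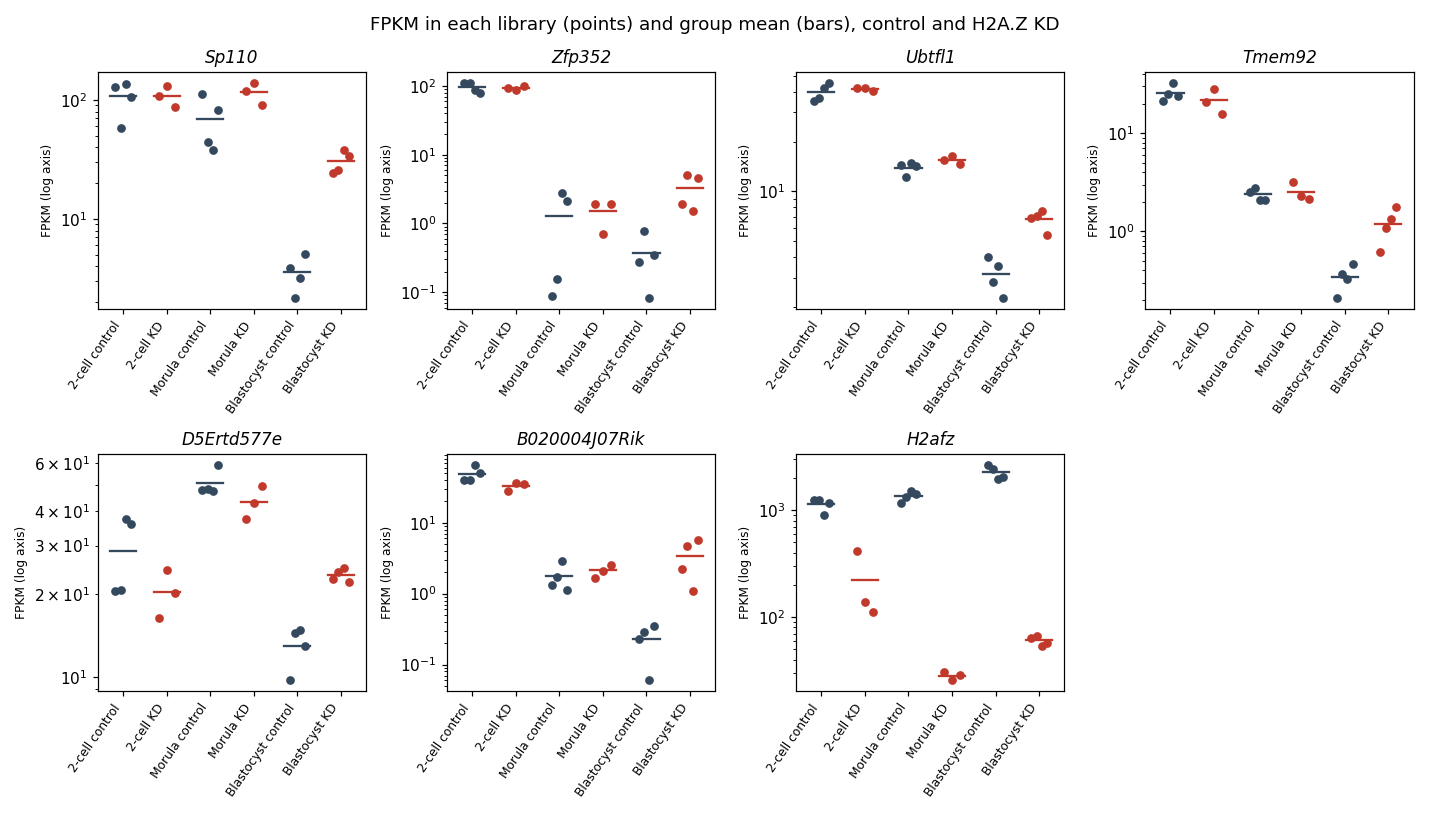
FPKM of the 6 genes and of H2afz on a log axis, with 1 point for each library, a bar at each group mean, control embryos in dark blue and KD embryos in red. In blastocysts all KD points of the 6 genes lie above all control points, while D5Ertd577e is highest in control morulae (47.5 to 59.0 FPKM).

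In blastocysts, the contrast on which the genes were selected, the ratio of KD to control means was 8.55 for Sp110, 8.85 for Zfp352, 2.14 for Ubtfl1, 3.53 for Tmem92, 1.80 for D5Ertd577e and 14.9 for B020004J07Rik. The ratio of Zfp352 depends on control replicate 4, at 0.772 FPKM, as the other controls were at 0.0826 to 0.348. All 6 genes had every KD library above every control library, as did 14.6% of the 11828 genes tested at this stage. With limma, 6.06% of those genes passed as higher in KD and 7.69% as lower, where a call needed an adjusted p below 0.05 together with a log2 fold change beyond 1 in either direction. No test of the 6 genes is reported here, because the selection used these values. Only 2 of the 6 (Zfp352 and B020004J07Rik) had a higher mean in KD blastocysts than in control morulae. For 5 of the 6, all but D5Ertd577e, every KD blastocyst library lay below every control 2-cell library. Both counts are descriptions only, because they rest on levels used in the selection and the shares over all genes are not given here. In pools of whole embryos, fewer expressing cells and less RNA per cell cannot be told apart. The p-values set a difference against the spread between such pools, and the spread between single embryos was not measured.

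At the 2-cell stage, the level of the genes had entered the selection and the KD contrast was not part of the rule, and no difference of the 6 genes passed the test. With limma, 0 of the 6 and 0% of 12160 genes were called in either direction, although 701 genes had an unadjusted p under 0.05. The log2 fold changes were 0.14 for Sp110, 0.03 for Zfp352, 0.13 for Ubtfl1, -0.20 for Tmem92, -0.37 for D5Ertd577e and -0.45 for B020004J07Rik. The last had a standard error of 0.18, a 95% interval of -0.85 to -0.05 and an adjusted p of 0.828, and was the only one whose groups did not overlap. Of all genes tested, 4.13% had every KD library below every control and 2.65% every KD library above, beside 1 and 0 of the 6. At an unadjusted p under 0.05 the count was 1 of the 6, B020004J07Rik. Leaving out a library gave few calls among all genes, 3 without KD replicate 1 and 1 without control replicate 2, none of them among the 6. H2afz itself was not called at this stage, with the smallest adjusted p of all genes, 0.543.

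In morulae, Sp110 had the largest difference of the 6 genes on the log2(FPKM + 1) scale, and it did not pass in the fit without covariates. With 0.1 added in place of 1, Zfp352 was at 1.075 (SE 0.946) and Sp110 at 0.991, and neither was called. The log2 fold change of Sp110 was 0.98 (SE 0.32, 95% interval 0.28 to 1.68, adjusted p = 0.0661 with limma). The other values were 0.35 for Zfp352, 0.30 for B020004J07Rik, 0.26 for Ubtfl1, 0.15 for Tmem92 and -0.11 for D5Ertd577e. Called genes were 0 of the 6, against 0.992% of 10989 genes higher and 2.53% lower in KD, and 0 of the 6 had every KD library above every control, against 6.7% of all genes. Without control replicate 1, Sp110 passed, with a log2 fold change of 1.20 and an adjusted p of 0.0264 with limma. Of 10684 genes then tested, 128 were called higher and 364 lower. With the replicate number as a block, Sp110 (1.01, adjusted p = 0.000213 with limma) and Zfp352 (1.01, adjusted p = 0.00283 with limma) passed. In that fit 218 of 10989 genes were called higher and 296 lower, against 109 and 278 without the block. The fit rests on the 2 numbers found in both groups, and the numbers were not taken as pairs. With low against high replicate numbers as the covariate instead, which keeps all libraries, neither passed (0.93, adjusted p = 0.0665 and 0.54, adjusted p = 0.179 with limma). At an unadjusted p under 0.05 the count was 1 of the 6, Sp110, and 3352 of all genes. Whether the KD difference of a gene changed between stages was not tested.

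**Figure D2:**
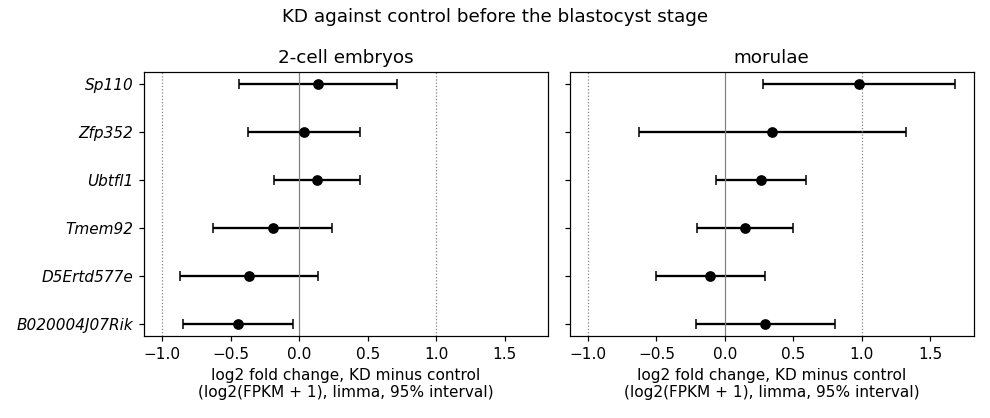
Log2 fold change of KD over control (horizontal axis, log2(FPKM + 1) scale, limma) with 95% intervals for the 6 genes in 2-cell embryos and morulae; dotted lines mark the threshold of 1. The values run from -0.45 to 0.14 in 2-cell embryos and from -0.11 to 0.98 in morulae, and none was called.

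Other 2-cell genes were examined as a list chosen as markers of that stage, of which 39 were in the table. Their summed FPKM were 216, 215, 221 and 203 in control and 330, 391.6, 310 and 512 in KD blastocysts, all KD libraries above all controls. Of 18 tested, 10 were called higher and 0 lower in KD, against 6.06% and 7.69% of all genes. Without the filter on low FPKM 5 were called, and of 34540 genes then tested, 598 were called higher and 851 lower. A gene can pass the filter through its KD libraries alone. Usp17lb did so, at 0.0347 to 0.150 FPKM in control and 1.13 to 7.44 in KD blastocysts. The 10 calls therefore include genes that entered the test through the difference itself, Usp17lb, Tdpoz5 and Tcstv3 among them. Obox6, a homeobox gene, had the largest difference of those tested on the log2(FPKM + 1) scale, from 8.35 ± 3.19 (SD, n = 4) to 91.0 ± 9.06 FPKM (SD, n = 4), with a log2 fold change of 3.36 (SE 0.21, adjusted p = 9.7e-07 with limma); by the ratio of means, 10.9, it was exceeded by genes with lower levels, such as Usp17lb at 45.4. Obox6 was not confined to the 2-cell stage, with means of 566 in control 2-cell embryos and 520 in control morulae. The sums of the KD blastocysts include its rise. On the log2 scale Tdpoz5 rose by 2.05 (SE 0.48, adjusted p = 0.00616 with limma) and Tcstv3 by 2.01 (SE 0.56, adjusted p = 0.0145 with limma). Both genes needed their KD libraries to pass the filter, with controls at 0.441 to 1.11 and 0.248 to 1.69 FPKM. Tcstv3 ran from 0.988 to 18.8 FPKM among the KD libraries. Eif1a, the most abundant of the list in blastocysts, had 166 ± 11.5 in control and 145 ± 9.56 FPKM in KD blastocysts (SD, n = 4 each). Eif1a was not highest at the 2-cell stage, with means of 36.7 in control 2-cell embryos and 130 in control morulae. It made up most of the sums of the control blastocysts, which therefore do not measure 2-cell genes alone.

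In morulae, the same list had 22 genes tested, 20 of them with a higher estimate in KD. Their median log2 fold change was 0.407, against 0.015 over all genes. Several are of the same family, such as Tdpoz1 to Tdpoz5, and may not be separate cases. No gene of the list was called higher, against 0.992% of all genes. Cphx2 was called lower, against 2.53%, at -1.33 (SE 0.35, adjusted p = 0.0333 with limma), a call that was lost without the filter. The summed FPKM were 711, 760, 808 and 773 in control and 1038, 1111 and 988 in KD morulae, without overlap, and most of the difference came from Obox6, at 520 in control and 770 FPKM in KD on average. In 2-cell embryos the sums averaged 2349 ± 245 (SD, n = 4) and 2324 ± 220 (SD, n = 3), and none was called. Over the whole table, 877 genes had a control 2-cell mean of at least 10 FPKM and at least 10 times the control blastocyst mean; 5 of the 6 genes, all but D5Ertd577e, were in this set. In morulae 437 of the 877 genes passed the filter and were tested, of which 24 were called higher and 2 lower. The 24 were 5.49% of those tested and 2.74% of the whole set, against 0.992% of all genes tested. A gene can pass the filter through its KD libraries alone at this stage too. How many of the 24 did so is not given here, so these shares are a description only. Calls of the set in blastocysts are not given, because its criterion used the control blastocysts.

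Regulators of the 2-cell program were examined by the same criteria. Of all genes, 0% were called in 2-cell embryos, 0.992% higher and 2.53% lower in morulae, and 6.06% higher and 7.69% lower in blastocysts; in lists this small, a single call changes the share a lot. In 2-cell embryos, morulae and blastocysts 8, 4 and 4 of 9 activators and 20, 18 and 20 of 21 repressors were tested, and none of these was called, while in blastocysts all 4 activators and 17 of the 20 repressors had a higher estimate in KD. In blastocysts the median log2 fold change was 0.662 for the tested activators and 0.202 for the tested repressors, against 0.005 over all genes. Dppa2, the most abundant activator in blastocysts, had 371 ± 87.7 in control and 629 ± 32.3 FPKM in KD libraries (SD, n = 4 each). Of 10 genes of the Sp100 family and PML bodies, 8, 7 and 7 were tested at these stages, and none of them was called. Of 17 Prame-like genes, of which 11 were tested in morulae and 8 in blastocysts, Pramef8 was called lower in KD morulae (-1.16, SE 0.22, adjusted p = 0.00934 with limma), and Pramef25, at 0.197 to 0.662 FPKM in control and 1.68 to 11.3 in KD blastocysts, was called higher after passing the filter only through its KD libraries.

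Markers of cell types and of development moved in the same libraries. The 9 trophectoderm markers summed to 1848, 2331, 1990 and 1633 FPKM in control and 865, 1109, 1025 and 918 in KD blastocysts, and 3 of the 9 were called lower, against 7.69% of all genes: Id2, Krt18 and Elf5, of which Elf5 passed the filter only through its control libraries. Krt18 was the most abundant. Another 3 had a higher estimate in KD and were not called, among them Krt7 and Tfap2c with ratios of 2.11 and 2.01. In morulae, Nanog was called lower among 5 tested of 9 markers of inner cell mass and primitive endoderm, against 2.53% of all genes. Nanog was at 106 ± 33.2 in control (SD, n = 4) and 20.7 ± 10.8 FPKM in KD (SD, n = 3). In blastocysts none of 5 tested was called and 4 had a higher estimate in KD. Of those not tested there, Pdgfra averaged 1.72 in control and 0.5945 FPKM in KD, Sox17 0.596 and 0.277, Fgf4 0.820 and 0.516, and Gata4 0.0404 and 0.0659. Of 17 oocyte and maternal transcripts, of which 3 were tested in blastocysts, Ooep was called lower in KD blastocysts, against 7.69% of all genes. It was called lower in KD morulae as well, among 7 tested and against 2.53% of all genes. In morulae Ooep passed the filter only through its control libraries. Of 12 cumulus and somatic markers, Hba-a1 was the only one tested in morulae. It was called higher in KD morulae, from 2.19 to 5.67 FPKM, against 0.992% of all genes. The summed level of the list stayed below 8 FPKM in every library. In blastocysts that sum was 0.626 to 1.79 FPKM in control and 2.16 to 3.73 in KD libraries, without overlap, and Hba-a1 was not called; Ptx3, Fshr and Hbb-bs were listed at 0 on average in all groups. Whether these differences bear on the 6 genes was not tested.

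The reads of some of the 6 genes can also come from related genes. Of the 100-base windows of D5Ertd577e transcripts, 69.5% were identical in transcripts of 8 other genes, foremost Gm3286 with 66.5% and E330014E10Rik with 60.4%. Their mean FPKM were 54.7 and 52.7 in control morulae, 12.5 and 9.67 in control blastocysts and 25.4 and 22.4 in KD blastocysts. For Sp110, 17.5% of the windows were shared with 5 genes, mostly Gm16026 at 12.6%. The share was 5.11% for B020004J07Rik, 0.643% for Zfp352 and 0.564% for Ubtfl1, and 0 for Tmem92. The values of D5Ertd577e and Sp110 are therefore uncertain between copies. Sp110 also overlaps G530012D18Rik on the opposite strand, and strand use was not given in the sources used here.

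The genes with the most similar profile over the 15 morula and blastocyst libraries, by Pearson r of log2(FPKM + 1), were Gm3286 for D5Ertd577e (0.996), Abcb5 for Sp110 (0.985), Gm4675 for Ubtfl1 (0.980), Otud6b for Tmem92 (0.972), Tdpoz5 for B020004J07Rik (0.898) and Pramef25 for Zfp352 (0.883). Among the 6 genes, r ran from 0.222 for Zfp352 with D5Ertd577e to 0.941 for Ubtfl1 with D5Ertd577e. These libraries share stages and conditions, so r describes their profiles only.

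In the GENCODE annotation on GRCm38, Sp110 lay on chr1:85576899-85598817, Zfp352 on chr4:90218820-90225702, Ubtfl1 on chr9:18404418-18413177, Tmem92 on chr11:94777217-94782703, D5Ertd577e on chr5:95456806-95485587 and B020004J07Rik on chr4:101834969-101844023. All 6 were annotated as protein coding, and Zfp352 and B020004J07Rik shared chromosome 4. Promoter sequences from RefSeq (build GRCm38.p6, 300 bases) were given for 3 of the 6, Sp110 with 2 starts, Zfp352 and Ubtfl1, and not for Tmem92, D5Ertd577e or B020004J07Rik. The promoter of Zfp352 (chr4:90218570-90218869, plus strand) held 9 matches of TAATCC, the core bound by OTX-type homeodomain proteins, which 7.06% of all 32851 promoters hold on either strand. The upstream promoter of Sp110 (chr1:85603842-85604141, minus strand) held 2 and the other one (chr1:85598761-85599060, minus strand) 1, and Ubtfl1 held 0. TGATTNNATCA, a gapped pair of DUX sites, was in none of the 4 and in 0.207% of all promoters. CCAAT was in both Sp110 promoters and in 37.4% of all promoters, GGGCGG in the Sp110 promoter nearer the annotated gene and in 35.7%, and TATAAA in none of the 4 and in 13.6%.

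Zfp352 and the upstream Sp110 promoter are printed because the longest run they share, AACACACCTTTAATC, occurred 3 times in each, a search chosen after the sequences had been read. The run, in capitals, overlaps TAATCC where a C follows, and was found on either strand in 23 of 32851 promoters (0.070%).
Zfp352: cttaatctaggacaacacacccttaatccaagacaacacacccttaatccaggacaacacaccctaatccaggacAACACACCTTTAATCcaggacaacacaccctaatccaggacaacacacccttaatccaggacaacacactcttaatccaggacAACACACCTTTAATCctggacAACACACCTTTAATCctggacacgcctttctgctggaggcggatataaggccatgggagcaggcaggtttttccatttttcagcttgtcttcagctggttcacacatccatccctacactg
Sp110: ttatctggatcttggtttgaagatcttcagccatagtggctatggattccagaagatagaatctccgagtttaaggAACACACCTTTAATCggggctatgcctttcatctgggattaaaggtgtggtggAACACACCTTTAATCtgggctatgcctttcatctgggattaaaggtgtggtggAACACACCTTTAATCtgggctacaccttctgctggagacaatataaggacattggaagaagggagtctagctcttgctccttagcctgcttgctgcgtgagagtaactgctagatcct
A match describes the letters only, and binding was not measured here.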

How the data were processed

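Reads had been mapped by the authors (STAR, mm10) and turned into gene values by StringTie 2.1.4; the deposited unit is FPKM, for 55335 genes. The libraries were made with Smart-seq2 (16 to 18 PCR cycles, paired reads of 150 bp). Each library was scaled within its stage by a median of ratios: its FPKM over the geometric mean of the stage, taken across genes detected in every library. A variant in which these factors were also divided by their own geometric mean was computed after the results of the first had been seen; the first was kept. A pseudocount of 1 was added, log2 taken, and a gene needed 3 libraries of the stage at 1 FPKM or more; all 6 genes passed at every stage. KD and control were compared within each stage with limma 3.58.1 in R 4.3.3 (lmFit, eBayes with a trend, Benjamini-Hochberg over all genes). The genes and the lists were chosen with earlier results of these data known; the rule gave 7 genes, of which 1 is not reported here. Genes named are the other 6, H2afz and H2afv, up to 3 called genes per list and direction and its most abundant gene, the genes most alike in profile, and paralogs found by sequence; other names were chosen after their values were seen. Python 3.11.15 and matplotlib 3.10.9 served for sequences and plots. Steps were tested on simulated data. Other pseudocounts, filters, scalings, covariates and left-out libraries were tried.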

Additional observations from a re-analysis of the deposited data

Results flagged for a closer look

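The FPKM of D5Ertd577e in control morula replicate 8, 59.0, stood far from the other control morulae, at 47.5 to 48.4. Among 32 groups of 4 libraries examined this was the only such value, and chance gives about 1 in 20.

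The KD and control libraries of B020004J07Rik stood apart in opposite directions at different stages: the ratio of KD to control means was 0.685 in 2-cell embryos, every KD library below every control, and 14.9 in blastocysts, every KD library above every control. The 2-cell difference did not pass (adjusted p = 0.828 with limma), and 4.13% of all genes tested there had every KD library below every control. The blastocyst values had selected the gene, and the difference between the stages was not tested.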

How the results depend on the processing

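The 6 genes kept a call of none in 2-cell embryos under every alternative tried, and in morulae except that 1 (Sp110) was called when control replicate 1 was left out, so that leaving out a library gave 0 to 1, and 2 (Sp110 and Zfp352) with the replicate block. The same-numbered libraries did not deviate together in every pair (r from 0.015 to 0.214 over 3 pairs at the 2-cell stage, 0.094 to 0.181 over 2 in morulae, -0.111 to 0.354 over 4 in blastocysts), so the numbers were not taken as pairs. With the block, all genes called in morulae were 514, of which 218 were higher and 296 lower. Estimates near 0 changed sign: Zfp352 in 2-cell embryos was -0.032 without scaling, -0.057 with the replicate block and -0.001 with the range of replicate numbers, and -0.058 to 0.128 over left-out libraries; Sp110 there was -0.114 to 0.268, and D5Ertd577e in morulae -0.232 to 0.026. Of estimates that kept their sign in morulae, Zfp352 (0.345) was 0.050 to 0.655 over left-out libraries and 1.075 with a pseudocount of 0.1, Tmem92 (0.146) was 0.045 to 0.206 and B020004J07Rik (0.295) was 0.173 to 0.476 over left-out libraries. In 2-cell embryos Tmem92 (-0.195) was -0.360 to -0.019 and D5Ertd577e (-0.369) was -0.488 to -0.237 over left-out libraries. Without scaling, Ubtfl1 was 0.064 in 2-cell embryos (0.13 as reported) and 0.148 in morulae (0.265 as reported), where the replicate block gave 0.406. Of all genes, leaving out a library gave 0 to 3 calls in 2-cell embryos. In morulae the count, 387, was 1458 on adjusted p alone, 789 with a pseudocount of 0.1 and 169 without the filter; without scaling, 71 were higher and 424 lower, against 109 and 278. In blastocysts the count, 1626, was 4321 on adjusted p alone and 2477 with a pseudocount of 0.1. Other 2-cell genes called were 5 with a pseudocount of 0.1 and 0 without the filter in morulae (1 as reported), and 5 without the filter in blastocysts (10 as reported). Scaling factors divided by their geometric mean, an alternative chosen after seeing the data, gave 0, 395 and 1640 calls at the 3 stages and no call among the 6 genes in 2-cell embryos or morulae. The cause of these shifts was not tested. Reads per value are unknown, so low levels such as those of Zfp352 and Tmem92 after the 2-cell stage carry a counting error that could not be computed.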

Other observations

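The shared run of the Zfp352 and Sp110 promoters lay in promoters of 22 genes, of which 15 were in the table. Zfp352 and Sp110, in which the run was found, are among the 15, and several others had nearly the same values as each other, such as Gm20765 and Gm21312 with 42.7 and 43.2 FPKM in control 2-cell embryos, and may not be separate cases. The genes named here were chosen after their values were seen. Gm8764 averaged 30.0 FPKM in control 2-cell embryos, 0.866 in control and 6.80 in KD blastocysts, and Gm4340 33.3, 1.00 and 8.43. The single blastocyst libraries of Gm4340 overlapped, at 0.456 to 1.41 FPKM in control and 0.934 to 23.2 in KD. Gm12790 and Pemt, which also hold the run, were instead higher in control blastocysts, at 169 and 136 FPKM, than in control 2-cell embryos, at 22.4 and 40.3.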
